A study of Mus musculus with 224 samples.

Results

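The immediate early response genes described here were 10 mouse genes: Fos, Fosb, Jun, Junb, Egr1, Atf3, Nr4a1, Btg2, Ier2 and Dusp1. They were found by matching the Ensembl identifiers of 3 tables of normalised values to these symbols. All 10 were present among 13637 genes in soleus muscle and 16542 genes in visceral adipose tissue. In liver 9 of the 10 were among 12611 genes, and Fosb was not analysed there. The values come from RNA sequencing of mice on a high-fat diet (HFD) and on regular chow (RC), of the inbred strains BALB/cJ, DBA/2J (written DBA/2JJ in the sample labels) and C57Bl/6J. The sample labels give 5, 13 and 33 as the days of sampling. Each tissue had 18 groups of strain, diet and day with 4 animals each, so 36 HFD animals stood against 36 RC animals, and the same 72 animals gave all 3 tissues. No transgene, deletion or drug is named in the labels for any group, and the composition of the diets, the sex and age of the animals, the time of day of sampling and the feeding state at sampling are not given in the sources used here. Each animal is taken as a separate replicate because its title carries its own number, and single animals are named below by that title without the tissue letter, in which HF and RC stand for the diet.

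Immediate early genes are transcribed within minutes of a stimulus, from transcription factors already present in the cell, and their messenger RNAs are usually short-lived. Growth factors, hormones, cyclic AMP, calcium, muscle contraction, handling and tissue damage are all known to induce them. Fos, Fosb, Jun and Junb encode subunits of the dimeric transcription factor AP-1. Egr1 is a zinc finger transcription factor, Atf3 a stress-induced basic leucine zipper factor and Nr4a1 an orphan nuclear receptor. Btg2 is an antiproliferative protein that promotes removal of poly(A) tails from messenger RNA, Ier2 is a small nuclear protein of the early response, and Dusp1 is a phosphatase that switches off MAP kinases. Dusp1 is also known as a gene induced by glucocorticoids. All 10 are protein coding, and on GRCm38 the annotation places Fos (ENSMUSG00000021250) at chr12:85473890-85477273 on the plus strand, Fosb (ENSMUSG00000003545) at chr7:19302696-19310051 on the minus strand, Jun (ENSMUSG00000052684) at chr4:95049034-95052222 on the minus strand, Junb (ENSMUSG00000052837) at chr8:84974484-84978718 on the minus strand. It places Egr1 (ENSMUSG00000038418) at chr18:34859823-34864984 on the plus strand, Atf3 (ENSMUSG00000026628) at chr1:191170296-191218039 on the minus strand, Nr4a1 (ENSMUSG00000023034) at chr15:101254269-101274795 on the plus strand, and Btg2 (ENSMUSG00000020423) at chr1:134075170-134079120 on the minus strand, Ier2 (ENSMUSG00000053560) at chr8:84661331-84662852 on the minus strand, Dusp1 (ENSMUSG00000024190) at chr17:26505590-26562128 on the minus strand.

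A library held 18078488 to 31991289 reads in liver, 19945355 to 33370016 in soleus and 19783483 to 46795074 in adipose tissue. Levels are log2 CPM, the deposited log2 of counts scaled to library size. In liver all 7 hepatocyte markers were measured, and their summed level was 16.4 to 17.1 log2 CPM on HFD and 16.4 to 17.2 on RC. In soleus all 8 slow muscle markers were measured, at 15.7 to 17 on HFD and 15.7 to 16.4 on RC. The 7 fast muscle markers summed to 13.2 to 14.8 on HFD and 13.6 to 16.8 on RC. The C57Bl/6J RC animal 1RC210 of day 33 held the highest fast muscle sum in soleus. It also held the lowest adipocyte sum there, 9.55, and it was kept in the main soleus fit. In adipose tissue all 8 adipocyte markers were measured, at 8.5 to 15.8 on HFD and 12.9 to 15.9 on RC, and 1 BALB/cJ animal on HFD at day 5 held the lowest value. The adipose libraries fell into 2 separate sets by their summed B cell markers. In 40 libraries the sum was 8.92 to 11.4, and in 32 it was 2.43 to 6.76, so called differences and counts in adipose tissue are also given with this set in the fit. The animal numbers in the titles fall into a lower, a middle and an upper range, whose meaning the labels do not give. These ranges went with strain and day: the lower, middle and upper range held 10, 5 and 9 BALB/cJ animals, 16, 6 and 2 DBA/2J animals, and 3, 9 and 12 C57Bl/6J animals. In bulk tissue, fewer cells of a type and less RNA per cell cannot be told apart.

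The promoters below are shown because Fos, Fosb, Nr4a1 and Dusp1 were higher together in soleus of DBA/2J mice on HFD, because Btg2 and Dusp1 hold the complete element searched for, and because Jun holds none of it. Each line gives the 250 bases before the transcription start on the coding strand, 5′ to 3′, from RefSeq on GRCm38.p6. Capitals mark the core of the cyclic AMP response element, TGACG on either strand, which reads CGTCA where it lies on the other strand, and the complete element TGACGTCA, which contains the core. In Fos the letters TATAAA are also in capitals. The regions are chr12:85473640-85473889 on the plus strand for Fos, chr7:19310046-19310295 on the minus strand for Fosb, chr15:101266596-101266845 on the plus strand for Nr4a1, chr17:26508473-26508722 on the minus strand for Dusp1, chr1:134079156-134079405 on the minus strand for Btg2 and chr4:95052223-95052472 on the minus strand for Jun.
Fos: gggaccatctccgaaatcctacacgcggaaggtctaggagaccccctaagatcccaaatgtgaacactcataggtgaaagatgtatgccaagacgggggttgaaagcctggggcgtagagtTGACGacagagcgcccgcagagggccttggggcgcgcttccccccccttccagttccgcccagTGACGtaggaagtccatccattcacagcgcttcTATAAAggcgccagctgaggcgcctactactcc
Fosb: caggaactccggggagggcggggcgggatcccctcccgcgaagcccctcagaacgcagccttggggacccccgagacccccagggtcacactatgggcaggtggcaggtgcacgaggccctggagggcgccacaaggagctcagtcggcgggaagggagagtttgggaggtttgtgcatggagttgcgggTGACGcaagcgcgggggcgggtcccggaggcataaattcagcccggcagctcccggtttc
Nr4a1: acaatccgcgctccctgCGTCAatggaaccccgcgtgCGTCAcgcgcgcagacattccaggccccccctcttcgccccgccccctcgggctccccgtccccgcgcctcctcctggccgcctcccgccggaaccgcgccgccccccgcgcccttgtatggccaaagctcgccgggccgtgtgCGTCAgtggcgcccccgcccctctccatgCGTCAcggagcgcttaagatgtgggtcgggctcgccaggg
Dusp1: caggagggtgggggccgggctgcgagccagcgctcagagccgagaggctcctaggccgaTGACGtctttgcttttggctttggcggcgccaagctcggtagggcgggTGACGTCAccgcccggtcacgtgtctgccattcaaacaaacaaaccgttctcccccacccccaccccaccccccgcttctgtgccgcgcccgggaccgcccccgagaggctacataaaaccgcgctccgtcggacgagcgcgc
Btg2: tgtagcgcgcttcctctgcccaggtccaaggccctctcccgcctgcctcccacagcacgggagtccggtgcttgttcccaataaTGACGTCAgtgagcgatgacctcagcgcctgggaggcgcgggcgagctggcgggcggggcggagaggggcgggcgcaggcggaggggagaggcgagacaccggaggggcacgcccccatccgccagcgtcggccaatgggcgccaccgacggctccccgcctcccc
Jun: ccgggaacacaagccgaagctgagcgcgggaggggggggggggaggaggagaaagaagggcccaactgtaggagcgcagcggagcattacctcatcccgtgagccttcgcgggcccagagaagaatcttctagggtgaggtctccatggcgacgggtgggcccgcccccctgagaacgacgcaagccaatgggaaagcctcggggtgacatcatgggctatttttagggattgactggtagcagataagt

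Promoters matched for 8 of the 10 genes, those 6 with Atf3 and Junb, and Ier2 and Egr1 were not matched. The core TGACG, complete elements included, lay in 7 of the 8 windows, all but that of Jun. Of 27025 promoter windows of the same length, 17.9% held it. The complete element TGACGTCA lay in 2 of the 8 windows, against 1.62% of all windows, 166 to 159 bases before the start in Btg2 and 143 to 136 bases before it in Dusp1. Nr4a1 held 4 cores, whose first bases lay 233, 213, 69 and 40 bases before its start. Fos held cores at 129 to 125 and at 66 to 62 bases before its start, and Fosb held a core at 60 to 56. Of the other motifs searched on both strands, the AP-1 site TGACTCA lay in 0 of the 8 windows and in 4.43% of all windows, the CArG box bound by serum response factor in 0 of the 8 and in 1.4% of all, and TATAAA in Fos alone of the 8, at 33 to 28 bases before the start, and in 13.0% of all. These matches describe the letters of the windows and do not show binding. Bases outside the windows, and the promoters of Ier2 and Egr1, were not searched. A count of 0 therefore does not show that these genes lack the motif elsewhere.

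Every gene measured in a tissue stood above the value of 0 reads in all RC libraries, and the order of levels differed by tissue. Fosb was low in soleus, down to -2.72 log2 CPM on RC, where 0 reads stand at -3.74, and it was not analysed in liver. On a scale of log2 CPM per kilobase of exon, the mean over 36 RC livers ran from 4.98 for Dusp1 through 4.38 for Jun, 4.20 for Ier2, 3.72 for Junb, 2.38 for Btg2, 1.87 for Egr1, 0.12 for Fos and -0.38 for Atf3 to -0.71 for Nr4a1. In soleus the order on the same scale was Jun 5.21, Dusp1 4.84, Nr4a1 4.60, Btg2 4.51, Atf3 4.05, Fos 3.12, Ier2 2.70, Junb 2.32, Egr1 1.96 and Fosb -2.42. In adipose tissue it was Btg2 5.03, Dusp1 4.44, Junb 4.21, Jun 4.11, Ier2 3.82, Egr1 3.49, Nr4a1 2.85, Fos 2.79, Atf3 1.62 and Fosb -0.81. Few neighbours in these orders stood further apart than the larger of their SDs over animals: 1 of 8 in liver (Junb and Btg2, a gap of 1.35), 1 of 9 in soleus (Egr1 and Fosb, 4.37) and 1 of 9 in adipose tissue (Atf3 and Fosb, 2.43). Nr4a1 was thus the lowest of 9 in liver and among the 3 highest in soleus, and Dusp1 was the highest or second highest in each tissue. The tables were scaled separately, so no level was tested between tissues.

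These genes varied widely between animals of the same strain, diet and day. Egr1 in liver had a residual SD of 1.11 log2 units within groups, wider than 98.3% of all liver genes, against 0.242 for the median gene. Over all 72 livers its level ran from -0.04 to 8.07 log2 CPM, or 0.97 to 268 CPM. The residual SD of the 9 genes stood at the 66.6 to 98.3 percentile of all genes in liver. It stood at the 55 to 96.4 percentile for the 10 genes in soleus and at the 51.3 to 79.7 percentile in adipose tissue. Against genes of like level, within 0.5 log2 CPM, the percentiles were 90.4 to 99.8 in liver, 77.6 to 99.7 in soleus and 70.2 to 89.1 in adipose tissue.

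The central question of the design is how the high-fat diet moved these genes in each tissue and strain. Over the 9 combinations of strain and day, the fitted HFD minus RC difference was below 0 in 58 of 81 values in liver (71.6%, against 48.2% of the values of all genes), in 28 of 90 in soleus (31.1%, against 50.7%) and in 41 of 90 in adipose tissue (45.6%, against 48.2%). The values within a tissue share animals and are not independent, and the difference between tissues was not tested.

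**Figure D1:**
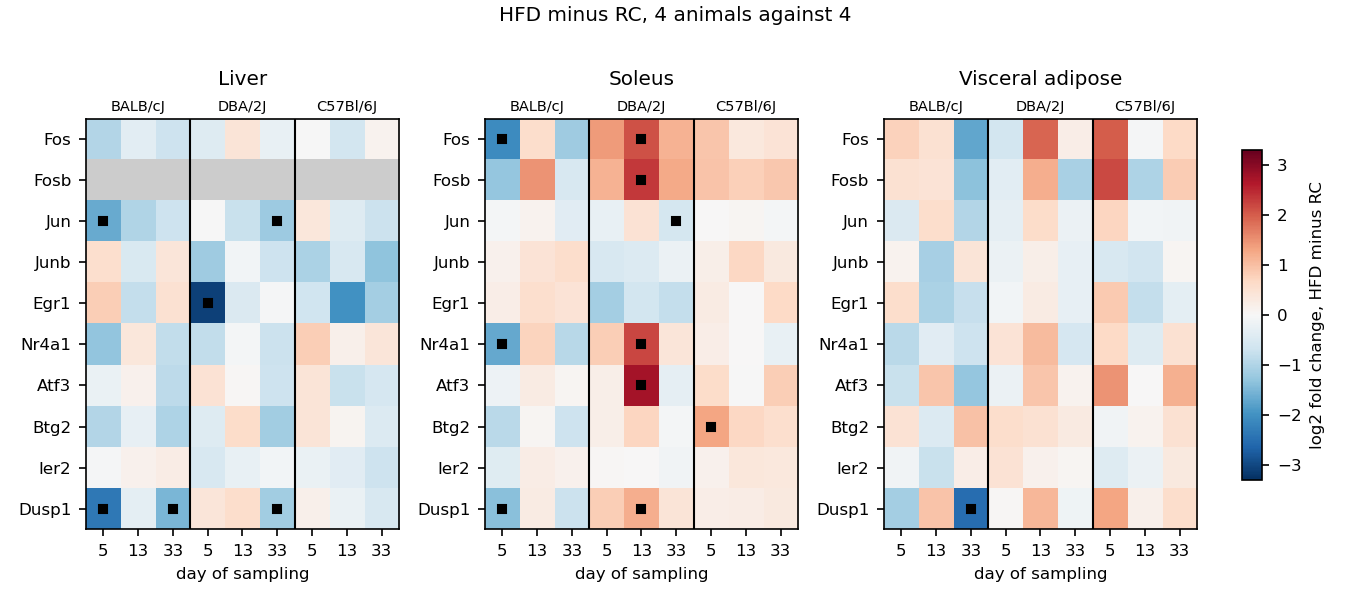
HFD minus RC difference of each gene in each strain (columns grouped by strain) and day of sampling, as the log2 fold change of 4 animals against 4, in liver, soleus and visceral adipose tissue. Red is higher and blue lower on HFD, a black square marks an adjusted p under 0.05, and grey marks Fosb, which was not analysed in liver. Lower values fill most of the liver panel, and the soleus panel is mostly higher for Fos, Fosb, Nr4a1 and Dusp1 in DBA/2J and mixed in BALB/cJ.

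In liver, 4 of the 9 genes fell on HFD over all strains and days and none rose, where 21.2% of all genes passed the same threshold in either direction: the AP-1 subunits Jun and Junb, Egr1, and the MAP kinase phosphatase Dusp1. The lowest, median and highest levels of Jun were 3.87, 5.48 and 6.66 log2 CPM in 36 HFD livers, against 4.02, 6.16 and 7.65 in 36 RC livers. Those of Dusp1 were 4.06, 6.30 and 7.67 on HFD, against 4.26, 6.79 and 8.09 on RC. The ranges of the diets overlapped over most of their width for both genes. Junb averaged 4.44 ± 0.74 on HFD and 4.92 ± 0.99 on RC, and Egr1 averaged 3.27 ± 1.34 on HFD, against 4.03 ± 1.97 for RC (SD, 36 animals each). The log2 fold changes with standard errors were -0.67 ± 0.14 for Jun (adjusted p = 0.000354, limma), -0.55 ± 0.14 for Dusp1 (adjusted p = 0.00224), -0.49 ± 0.16 for Junb (adjusted p = 0.0218) and -0.76 ± 0.25 for Egr1 (adjusted p = 0.0230). Ier2 had -0.19 (adjusted p = 0.0513) and Btg2 -0.35 (adjusted p = 0.0744), and Fos, Atf3 and Nr4a1 had -0.30, -0.22 and -0.21. The median of the 9 fold changes was -0.35, against 0.007 over all genes.

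The liver differences were not all called, or all in the same direction, within each range of animal numbers. The fits within the lower, middle and upper range held 29, 18 and 20 animals of unlike strains and days. No day 13 animals were in the lower fit and no DBA/2J animals in the upper, and the middle fit held day 13 and C57Bl/6J at day 5. Number range, strain and day thus cannot be told apart in these fits. Within the lower, the middle and the upper range, 3, 0 and 0 genes passed the threshold. The share of all genes that passed in these smaller fits was not counted, so these counts have no background. Dusp1 had -0.13 in the middle range and 0.0652 in the upper range, the opposite direction to the whole. Jun had -0.15 in the middle range and -0.41 in the upper range. Junb was lower on HFD in each range, by -0.43, -0.39 and -0.59, and so was Egr1, by -0.55, -0.41 and -1.21, and neither passed the threshold within a single range. The 3 genes called within the lower range were Jun, Dusp1 and Btg2. Erythroid transcripts were also lower on HFD in liver, in 3 of 5 measured markers, and hepatocyte markers in 4 of 7. Their part in the result was not tested.

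In BALB/cJ livers Dusp1, Jun and Btg2 fell on HFD over the 3 days, 3 of 9 genes where 14.8% of all genes passed. The lowest, median and highest Dusp1 levels were 4.06, 5.76 and 7.44 in 12 HFD livers, against 6.16, 6.89 and 8.09 in 12 RC livers. The RC livers lay in the upper part of the HFD range and beyond it, a 2.63-fold lower level on HFD (log2 -1.39 ± 0.23, adjusted p = 3.52e-05). Jun had 3.87, 4.94 and 6.29 on HFD, against 5.10, 6.18 and 7.08 on RC (-1.12 ± 0.25, adjusted p = 0.00131). Btg2 had 1.58, 2.51 and 3.93 on HFD, against 2.31, 3.55 and 5.29 on RC (-0.76 ± 0.25, adjusted p = 0.0303). The call of Btg2 was lost in a fit of BALB/cJ animals alone (adjusted p = 0.138) and without any of 8 animals (adjusted p up to 0.0950), namely 3HF201, 3HF202, 3HF228, 3HF230, 3RC201, 3RC203, 3RC209 and 3RC255.

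By day, BALB/cJ livers differed at day 5 and day 33. On day 5 Dusp1 stood at 4.06, 5.02, 5.32 and 5.79 log2 CPM in the HFD livers, against 6.79, 7.0, 7.85 and 8.01 in the RC livers. The diets did not overlap, and the highest HFD liver was still below the lowest RC liver (5.16-fold lower, log2 -2.37 ± 0.41, adjusted p = 5.87e-05). Jun on day 5 stood at 4.04, 4.60, 4.72 and 5.81 on HFD, against 6.14, 6.22, 6.51 and 7.02 on RC, again without overlap (-1.68 ± 0.43, adjusted p = 0.00641). These were 2 of 9 genes on day 5, where 12.5% of all genes passed. Erythroid markers went the same way, with 2 of 5 lower and a summed level of 7.03 to 8.24 on HFD against 8.94 to 10.4 on RC, and their part was not tested. On day 13 Jun stood at 3.87, 4.88, 4.91 and 4.98 on HFD, against 5.10, 5.66, 5.85 and 6.02 on RC, and Dusp1 at 5.23, 5.33, 6.36 and 7.44 against 6.24, 6.36, 6.51 and 6.54. Neither passed the threshold on day 13. On day 33 Dusp1 stood at 5.73, 5.84, 5.95 and 6.51 on HFD, against 6.16, 7.85, 7.93 and 8.09 on RC, where 9.59% of all genes passed. A single RC liver lay inside the HFD range (-1.50 ± 0.41, adjusted p = 0.0112). The day 33 call was lost without animal 3RC208 or 3RC209 (adjusted p up to 0.0733), and all 3 calls at single days were lost in fits of the 8 animals compared, at adjusted p = 0.0554 and 0.0911 on day 5 and 0.0604 on day 33.

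In DBA/2J livers Egr1 fell on HFD. Over the 3 days Egr1 had a lowest, median and highest level of 1.63, 3.16 and 6.32 in 12 HFD livers, against 2.68, 4.85 and 5.77 in 12 RC livers (-1.20 ± 0.44, adjusted p = 0.0403), the only 1 of 9 genes called where 21.6% of all genes passed. Leaving out any of 14 animals ended that call (adjusted p up to 0.0798). A larger difference was seen on day 5, where Egr1 stood at 1.63, 1.97, 2.24 and 2.60 on HFD, against 4.76, 4.95, 5.37 and 5.71 on RC. The diets were more than 2 log2 units apart with no overlap (8.49-fold lower, log2 -3.09 ± 0.76, adjusted p = 0.00568), and the adjusted p stayed at 0.0246 or below with any animal left out. On that day 6.97% of all genes passed, and 4 of 5 erythroid markers were lower, at a summed 7.82 to 8.39 on HFD against 9.08 to 10.04 on RC. On day 33 Dusp1 stood at 5.05, 5.10, 6.25 and 6.41 on HFD, against 6.69, 6.81, 6.86 and 7.03 on RC, without overlap (-1.14 ± 0.41, adjusted p = 0.0446). Jun on day 33 stood at 5.15, 5.18, 5.69 and 6.57 on HFD, against 6.06, 6.84, 6.89 and 7.58 on RC, with some overlap (-1.20 ± 0.43, adjusted p = 0.0458), and 15.9% of all genes passed on that day. Both calls were lost without any of 6 animals, at adjusted p up to 0.155 for Dusp1 (2HF210, 2HF211, 2RC208, 2RC209, 2RC210, 2RC211) and up to 0.178 for Jun (2HF208, 2HF210, 2HF211, 2RC208, 2RC209, 2RC210). In fits of the 8 animals compared Jun was not called (adjusted p = 0.0664) and Dusp1 was (adjusted p = 0.0379).

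C57Bl/6J livers gave 1 call in 9 genes, where 2.31% of all genes passed. Junb had a lowest, median and highest level of 3.63, 4.46 and 4.85 in 12 HFD livers, against 3.52, 5.57 and 6.55 in 12 RC livers (-0.96 ± 0.28, adjusted p = 0.0453). The HFD livers sat in the lower part of the RC range. That call ended without any of 14 animals (adjusted p up to 0.1235) and in a fit of C57Bl/6J animals alone (adjusted p = 0.121). No gene was called at a single day in this strain. Over the 9 combinations, 6 of 81 liver values were called, where 5.40% of all genes' values were.

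**Figure D2:**
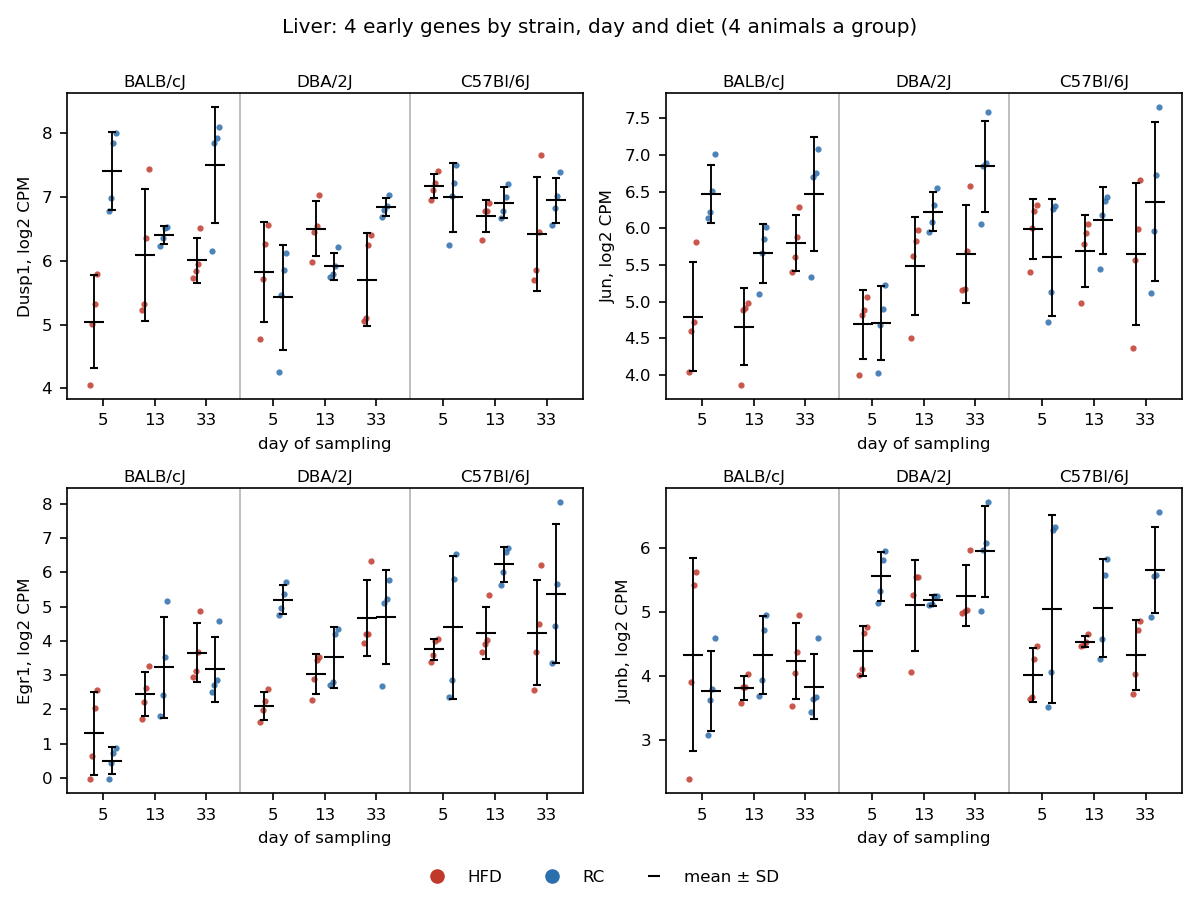
Levels in liver (log2 CPM) of Dusp1, Jun, Egr1 and Junb by strain and day of sampling. Each point is 1 animal, HFD in red to the left of RC in blue, with the mean ± SD of 4 animals. Dusp1 and Jun in BALB/cJ on day 5 and Egr1 in DBA/2J on day 5 show HFD animals wholly below RC animals.

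In a list of 50 further early genes, 39 were measured in liver, of which 3 rose and 8 fell over all strains and days, beside the 21.2% of all genes that passed, with a median of -0.10 against 0.007 over all genes. Zfp36, which encodes a protein that promotes decay of messenger RNA, had -0.59, Per1 -0.66 and Errfi1 -0.36. Of 19 measured genes that signal to early genes 3 rose and 1 fell, near that share, and of 8 AP-1 partner factors 1 fell. Of 9 heat shock genes 6 rose over all strains and days. In DBA/2J, where 21.6% of all genes passed, 8 of the 9 rose, and Hspa1b had 2.47. Of 17 clock genes 4 fell over all strains and days, again near the share of all genes, and 2 rose and 7 fell in DBA/2J. The time of day of sampling is not given in the sources used here, and its part was not tested.

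Whether the diet effect in liver differed between strains was tested directly, and Dusp1 was the only 1 of 9 genes to pass (F test, adjusted p = 0.00448), where 15.7% of all genes did. Its diet effect in BALB/cJ was lower than in DBA/2J by a log2 difference of -1.34 ± 0.33 (adjusted p = 0.00679) and lower than in C57Bl/6J by -1.20 ± 0.33 (adjusted p = 0.0250). The Egr1 decrease called in DBA/2J did not pass as a difference between strains (F test, adjusted p = 0.143). No gene passed for a difference between days by limma, where 3.35% of all genes did, and 2 of 9, Btg2 and Dusp1, had an unadjusted p under 0.05.

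In soleus the directions of the strains opposed each other. Over all strains and days Fosb alone of 10 genes rose, where 17.4% of all genes passed. Its lowest, median and highest levels were -1.73, 1.23 and 3.70 log2 CPM in 36 HFD muscles, against -2.72, 0.37 and 3.5 in 36 RC muscles, with wide overlap (0.78 ± 0.23, adjusted p = 0.0124). Within the lower number range Fosb had -0.207, the opposite direction, and within the upper range 0.78. The ranges held unlike strains and days here as in liver. The median fold change of the 10 genes was 0.16, against 0.0003 over all genes.

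In DBA/2J soleus Fos, Fosb, Nr4a1 and Dusp1 rose on HFD over the 3 days, 4 of 10 genes where 8.73% of all genes passed. Fos had a lowest, median and highest level of 3.54, 4.99 and 5.92 in 12 HFD muscles, against 1.89, 3.37 and 4.36 in 12 RC muscles (2.91-fold, log2 1.54 ± 0.33, adjusted p = 0.00118). Nr4a1 had 6.14, 6.78 and 7.68 on HFD, against 4.95, 5.84 and 6.38 on RC (1.15 ± 0.22, adjusted p = 0.00021). The HFD median lay above the highest RC muscle for both genes. Dusp1 had 6.28, 7.0 and 7.40 on HFD, against 5.31, 6.18 and 6.63 on RC (0.82 ± 0.16, adjusted p = 0.000248). Fosb had -0.07, 1.16 and 3.32 on HFD, against -1.69, -0.50 and 0.96 on RC (1.58 ± 0.39, adjusted p = 0.00584). The low Fosb values rest on few reads, as 0 reads stand at -3.74 in soleus. Egr1 and Junb had fold changes below 0, at -0.84 (adjusted p = 0.0754) and -0.39 (adjusted p = 0.209), and Atf3 had 0.87 (adjusted p = 0.0847). Each of the 4 called genes has the TGACG core in its promoter window printed above. Atf3, Btg2 and Junb, which were not called here, hold it too, as 7 of the 8 windows read did. The part of the core, or of cyclic AMP, in these differences was not tested.

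On day 13 alone 5 of 10 genes rose, where 4.55% of all genes passed. Atf3 stood at 7.20, 7.28, 7.28 and 8.55 on HFD, against 3.97, 4.19, 5.48 and 5.73 on RC (6.65-fold, log2 2.73 ± 0.57, adjusted p = 0.00145). Nr4a1 stood at 7.19, 7.57, 7.62 and 7.68 on HFD, against 4.95, 5.02, 5.19 and 6.05 on RC (2.21 ± 0.37, adjusted p = 0.000128). For both genes every HFD muscle was more than 1 log2 unit above every RC muscle. Dusp1 stood at 6.95, 7.08, 7.33 and 7.40 on HFD, against 5.31, 5.88, 6.20 and 6.56 on RC (1.20 ± 0.27, adjusted p = 0.00312). Fos stood at 4.61, 4.75, 5.08 and 5.92 on HFD, against 2.74, 2.75, 2.88 and 3.61 on RC (2.09 ± 0.57, adjusted p = 0.0205). Fosb stood at 1.02, 1.24, 1.39 and 1.52 on HFD, against -1.69, -1.43, -0.61 and -0.42 on RC (2.33 ± 0.68, adjusted p = 0.0325). On that day 6 of the 10 genes did not overlap between the diets, these 5 among them. The share of all genes without overlap was not computed. All 4 RC animals of that day were of the middle number range, and the HFD animals were 2 of the middle and 2 of the upper range. With the range in the fit, Atf3, Nr4a1 and Dusp1 stayed called, and Fos (adjusted p = 0.0560) and Fosb (adjusted p = 0.0874) did not. Fos also lost its call without any of 4 animals (2HF255, 2RC228, 2RC229 and 2RC231, adjusted p up to 0.0938), and Fosb without any of 6 (2HF230, 2HF231, 2HF253, 2HF255, 2RC228 and 2RC231, up to 0.122).

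On day 5, Nr4a1 in DBA/2J soleus stood at 6.61, 6.70, 6.76 and 6.79 on HFD, against 5.61, 5.78, 5.90 and 6.30 on RC, and Dusp1 at 6.79, 7.04, 7.16 and 7.19 against 5.67, 6.10, 6.49 and 6.63. They were 2 of the 3 genes whose diets did not overlap on that day, and the share of all genes without overlap was not computed here either. Neither gene passed the threshold over all genes. On day 33 the call was Jun, in the other direction, at 6.13, 6.41, 6.62 and 6.77 on HFD against 6.82, 7.10, 7.12 and 7.16 on RC (-0.57 ± 0.16, adjusted p = 0.0360), where 3.19% of all genes passed. It was lost without any of 5 animals (2HF208, 2HF209, 2RC208, 2RC209 and 2RC210, adjusted p up to 0.223). Adipocyte markers over the 3 days were higher on HFD in 4 of 8 (summed level 11.5 to 12.5 on HFD, 11.6 to 12 on RC), and erythroid markers were lower in 5 of 5 (7.28 to 8.61 on HFD, 7.94 to 9.86 on RC). Hepatocyte markers also stood in these muscles, at a summed 1.85 to 10.4 on HFD (median 3.76) and 1.73 to 12.4 on RC (median 7.76), with 0 of 7 past the threshold, and their part was not tested. On day 13 alone 1 of 8 adipocyte markers was higher, with sums of 11.8 to 11.9 on HFD and 11.6 to 11.8 on RC, and 0 of 5 erythroid markers passed.

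Other early genes rose beside them in DBA/2J soleus. Of 47 measured genes in a list of further early genes, 16 rose and 4 fell over the 3 days, with a median of 0.10 against -0.0001 over all genes, of which 8.73% passed. On day 13, where 4.55% of all genes passed, 14 rose and 2 fell, with a median of 0.53 against -0.009. The Krüppel-like factors Klf4 and Klf6 had 2.49 and 1.04 on day 13, and the kinase Sik1, known as a target of cyclic AMP signalling, had 2.28. Of 8 AP-1 partner factors, Mafk, Maff and Fosl2 rose on day 13, by 1.26, 1.67 and 0.92, and none fell. Of 19 genes of signalling to early genes, 1 was called on day 13, near the share of all genes, the cyclic AMP response modulator Crem at 0.67. Of 9 glucocorticoid-induced genes, none passed in DBA/2J soleus over the 3 days. Of 17 clock genes, 3 rose and 9 fell over the 3 days, with Arntl at 1.61, Clock at 0.63 and Tef at -0.59.

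In BALB/cJ soleus the called genes were lower on HFD. Dusp1 and Nr4a1 fell over the 3 days, 2 of 10 genes where 11.5% of all genes passed. Dusp1 had 5.00, 6.71 and 7.45 on HFD, against 6.27, 7.11 and 7.68 on RC (-0.60 ± 0.16, adjusted p = 0.00792), and Nr4a1 had 4.41, 5.00 and 7.73 on HFD, against 4.32, 6.22 and 6.97 on RC (-0.63 ± 0.22, adjusted p = 0.0463). The Nr4a1 ranges of the diets overlapped over most of their width, and its call ended without any of 16 animals (adjusted p up to 0.122) and with the number range in the fit (0.0724). At a single day the calls were on day 5, when Fos, Nr4a1 and Dusp1 fell, 3 of 10 genes where 3.70% of all genes passed. Nr4a1 then stood at 4.41, 4.65, 4.77 and 5.35 on HFD, against 5.48, 6.62, 6.88 and 6.97 on RC (-1.69 ± 0.37, adjusted p = 0.00498). Fos stood at 2.17, 2.62, 3.42 and 3.79 on HFD, against 4.38, 4.47, 5.27 and 6.13 on RC (-2.06 ± 0.57, adjusted p = 0.0312), and both genes were without overlap. Dusp1 stood at 5.00, 5.57, 5.63 and 7.09 on HFD, against 7.0, 7.04, 7.17 and 7.57 on RC, with 1 HFD muscle inside the RC range (-1.37 ± 0.27, adjusted p = 0.00152). In fits of the 8 animals compared, the adjusted p was 0.107 for Nr4a1, 0.125 for Fos and 0.170 for Dusp1, and Fos also lost its call without any of 5 animals (3HF201, 3HF202, 3HF203, 3RC203 and 3RC251, up to 0.131). In the list of further early genes 0 of 47 rose and 12 fell on day 5, among them Klf6 at -0.94, Rhob at -1.0 and Zfp36 at -1.44. Erythroid markers summed to 7.01 to 7.95 on HFD and 8.03 to 8.83 on RC on that day, with 1 of 5 lower, and their part was not tested.

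C57Bl/6J soleus gave 1 call, where 5.75% of all genes passed: Btg2 rose over the 3 days. Its lowest, median and highest levels were 5.43, 6.77 and 8.04 on HFD, against 5.44, 5.84 and 6.44 on RC (0.85 ± 0.18, adjusted p = 0.00159). On day 5 Btg2 stood at 6.70, 6.76, 7.26 and 8.04 on HFD, against 5.60, 5.76, 5.80 and 6.36 on RC, without overlap (1.31 ± 0.32, adjusted p = 0.0263), where 0.843% of all genes passed. The day 5 call ended without animal 1HF227, 1RC226, 1RC227 or 1RC251 (adjusted p up to 0.173) and in a fit of the 8 animals (0.118). Over the 9 combinations, 10 of 90 soleus values were called, where 2.34% of all genes' values were.

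**Figure D3:**
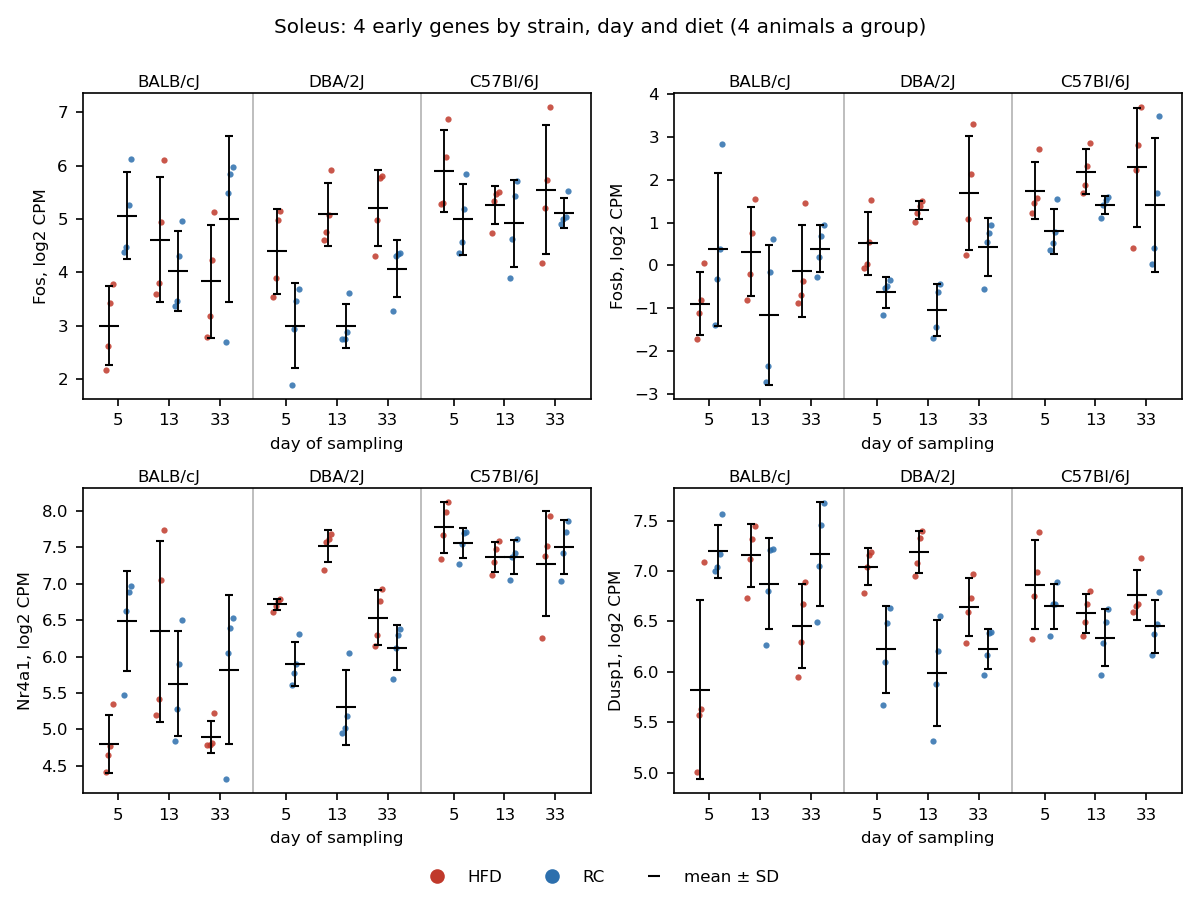
Levels in soleus (log2 CPM) of Fos, Fosb, Nr4a1 and Dusp1 by strain and day of sampling. Each point is 1 animal, HFD in red to the left of RC in blue, with the mean ± SD of 4 animals. HFD animals lie above RC animals in DBA/2J on day 13 for all 4 genes, and below them in BALB/cJ on day 5 for Fos and Nr4a1.

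The opposite directions passed as differences between strains. The diet effect differed for Dusp1 (F test, adjusted p = 9.57e-05), Nr4a1 (0.000313), Btg2 (0.00115) and Fos (0.00136), 4 of 10 genes where 9.83% of all genes passed. The diet effect on Fos in BALB/cJ was below that in DBA/2J by a log2 difference of -2.42 ± 0.47 (adjusted p = 0.000917), that on Nr4a1 by -1.78 ± 0.31 (adjusted p = 0.000221) and that on Dusp1 by -1.42 ± 0.22 (adjusted p = 4.28e-05). For Btg2 the diet effect in BALB/cJ was lower than in C57Bl/6J by -1.36 ± 0.26 (adjusted p = 0.00109). Nr4a1 was the only 1 of 10 whose diet effect differed between days (F test, adjusted p = 0.0289), where 0.990% of all genes passed. Its diet effect over the strains was -0.22 on day 5, 0.98 on day 13 and -0.25 on day 33. That call ended without animal 3HF252 or 3RC230 (adjusted p up to 0.0539).

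In visceral adipose tissue the diet moved few of these genes past the threshold. Over all strains and days 0 of 10 were called by limma, where 2.67% of all genes were. Of the 10, 1 had an unadjusted p under 0.05, Btg2 (adjusted p = 0.251). Within strains 0 of 10 were called in BALB/cJ, DBA/2J and C57Bl/6J, where 0.435%, 0.411% and 0.115% of all genes were, and 2, 0 and 3 of the 10 had an unadjusted p under 0.05. The members' medians were -0.24, 0.25 and 0.21 in these strains. With the B cell marker set in the fit, an alternative chosen after the data were seen, Btg2 rose over all strains and days (0.37 ± 0.11, adjusted p = 0.020), where 10.9% of all genes passed. Its lowest, median and highest levels were 5.47, 7.02 and 7.68 on HFD, against 5.28, 6.70 and 7.22 on RC. The set itself went with the levels of several genes: the median of Fos was 5.15 in the 32 libraries with fewer B cell transcripts and 3.36 in the 40 with more, that of Jun was 6.46 and 5.24, that of Dusp1 was 6.80 and 5.79, and that of Btg2 was 6.16 and 7.0. Of the libraries with fewer, 17 came from DBA/2J, 9 from BALB/cJ and 6 from C57Bl/6J animals.

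The call in adipose tissue was Dusp1 in BALB/cJ on day 33, 1 of 90 values over the combinations, where 1.22% of all genes' values were called. Dusp1 stood at 4.18, 4.43, 4.69 and 4.94 log2 CPM on HFD, against 6.41, 6.65, 7.60 and 7.60 on RC. Every HFD sample was more than 1 log2 unit below every RC sample (5.68-fold lower, log2 -2.51 ± 0.46, adjusted p = 0.00111), and 10.7% of all genes passed on that day. With the B cell marker set in the fit the difference was -2.27 ± 0.34 (adjusted p = 8.58e-05), and Jun fell as well (-0.72 ± 0.26, adjusted p = 0.0455), where 19.6% of all genes passed. In a fit of the 8 animals alone Dusp1 was not called (adjusted p = 0.139). Adipocyte markers were lower in 6 of 8 in the same comparison, with a median of -3.12 and sums of 8.85 to 13.8 on HFD against 14.2 to 15.9 on RC. Erythroid markers were lower in 3 of 5, with sums of 5.52 to 7.97 on HFD against 7.59 to 10.9 on RC. The part of either in the result was not tested. Of the HFD animals 1 was of the lower and 3 of the upper number range, and of the RC animals 3 and 1. With the set in the fit Dusp1 also fell over the 3 days in BALB/cJ (-0.98 ± 0.20, adjusted p = 0.00349), where 12.7% of all genes passed. Its diet effect then differed between strains, with 0.490% of all genes passing that F test, by -1.50 ± 0.28 against C57Bl/6J (adjusted p = 0.00254) and by -1.39 ± 0.28 against DBA/2J (adjusted p = 0.0110). Without the set 0 of 10 genes passed for strains, where 0.0846% of all genes did, and 0 for days, where 0% did, and 2 and 1 of the 10 had an unadjusted p under 0.05.

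In C57Bl/6J adipose tissue on day 5, values on HFD were high without a call. Fos stood at 3.75, 5.10, 6.32 and 6.33 on HFD, against 2.99, 3.33, 3.58 and 3.58 on RC, and Dusp1 at 6.18, 7.37, 7.40 and 7.78 against 5.68, 5.83, 6.02 and 6.03. The diets did not overlap for either gene, and the adjusted p was 0.646 for both, where 0% of all genes passed. Of the HFD animals 2 were in the set with fewer B cell transcripts, and all 4 RC animals were in the set with more. With the set in the fit the differences were 1.54 ± 0.63 for Fos and 0.83 ± 0.35 for Dusp1, again without a call.

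Dusp1 in BALB/cJ mice was called lower on HFD in each of the 3 tissues, over the 3 days in liver and soleus and on day 33 in adipose tissue. No single day gave a call in all 3 tissues. Over the 3 days it was not called in adipose tissue in the main fit (adjusted p = 0.0766, limma). The calls at single days were lost in fits of only the animals compared. The days with a call in liver and soleus are given above. Adipose tissue on day 5 stood at 5.00, 5.17, 5.49 and 5.98 on HFD, against 5.69, 5.91, 7.22 and 7.35 on RC, with overlap and no call. On day 13 no tissue gave a call, and soleus stood at 6.74, 7.12, 7.32 and 7.45 on HFD against 6.27, 6.80, 7.21 and 7.22 on RC. Adipose tissue on day 13 stood at 5.18, 5.20, 6.64 and 7.59 on HFD, against 4.72, 5.14, 5.34 and 5.70 on RC. On day 33 soleus stood at 5.95, 6.30, 6.67 and 6.89 on HFD, against 6.50, 7.05, 7.46 and 7.68 on RC, with overlap and no call. On day 13 the diets thus overlapped in all 3 tissues.

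**Figure D4:**
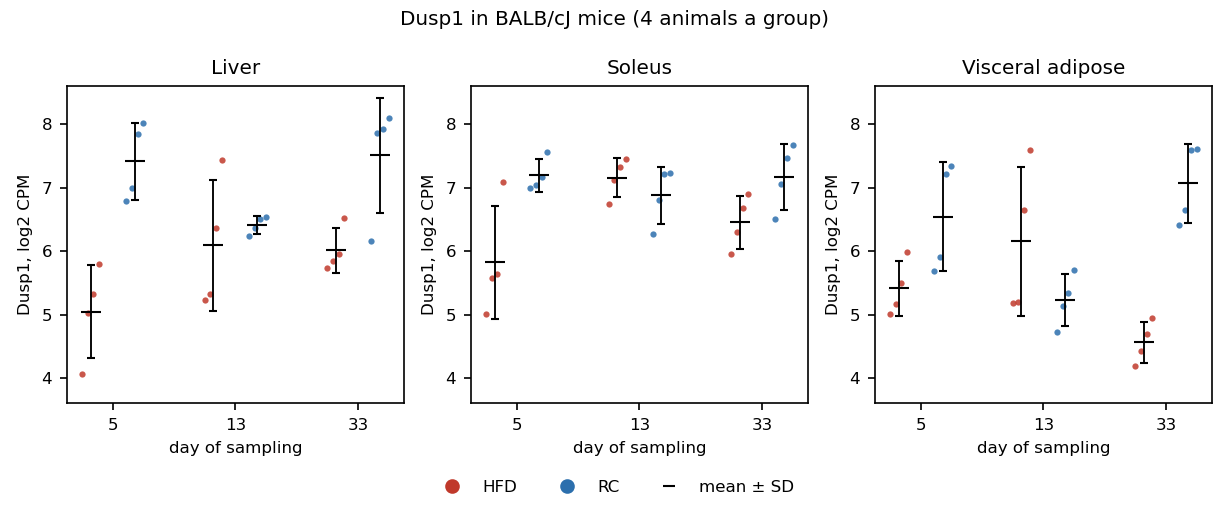
Dusp1 levels (log2 CPM) in BALB/cJ mice by day of sampling in liver, soleus and visceral adipose tissue. Each point is 1 animal, HFD in red to the left of RC in blue, with the mean ± SD of 4 animals. HFD animals lie wholly below RC animals in liver on day 5 and in adipose tissue on day 33, and the diets overlap in all 3 tissues on day 13.

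Genes of a glucocorticoid-induced list, to which Dusp1 does not belong, were lower in the same BALB/cJ comparisons. In liver 7 of 9 fell over the 3 days and none rose, with a median of -1.04 against 0.011 over all genes, 6 fell on day 5 with a median of -1.51, and 8 fell on day 33 with a median of -2.20. The shares of all genes called in these comparisons were 14.8%, 12.5% and 9.59%. The feedback inhibitor of EGF receptor signalling Errfi1 had -1.89 on day 5 and -1.63 on day 33, the kinase Sgk1 had -1.74 on day 5, and the glucocorticoid receptor co-chaperone Fkbp5 had -2.69 on day 33. In soleus 3 of 9 fell on day 5 and 7 on day 33, where 3.70% and 3.79% of all genes passed. In adipose tissue 0 of 9 passed on day 5, where 0% of all genes did, and 8 fell on day 33, where 10.7% did, with a median of -2.08 against 0.024 over all genes. In adipose tissue on day 33 Tsc22d3, a leucine zipper protein known as a glucocorticoid target, had -2.35. On day 13 none of the 9 was called in any of the 3 tissues of BALB/cJ, where 0.365%, 0.0587% and 0% of all genes were in liver, soleus and adipose tissue, and the medians were 0.41 in liver, 0.22 in soleus and 0.82 in adipose tissue. In C57Bl/6J none of the 9 passed in any tissue over the 3 days. The shares of all genes called there were small, 2.31% in liver, 5.75% in soleus and 0.115% in adipose tissue. In DBA/2J 1 of the 9 fell in liver, the clock gene Per1 at -0.81, where 21.6% of all genes passed. Per1 and Errfi1 are also in the list of further early genes, so those lists share members. The part of glucocorticoids in the Dusp1 result was not tested. The list of further early genes in BALB/cJ liver had 15 of 39 lower and 4 higher, with a median of -0.20, and Cebpd at -1.46.

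Many of these genes differed between strains on chow, as many other genes did. In liver 7 of 9 genes differed between strains on RC, all but Jun and Atf3 in the F test, where 67.2% of all genes did. In soleus 8 of 10 did, where 61.4% of all genes did, and in adipose tissue 4 of 10, where 41.05% did. With the B cell marker set in the fit the adipose count was 5 of 10, Ier2 besides Fosb, Jun, Junb and Atf3, where 26.6% of all genes passed. These shares lie near the background. Reads of all strains were mapped to 1 genome build, that of C57Bl/6J, so sequence differences between strains can enter these values.

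The largest chow difference in liver was Egr1. Its lowest, median and highest levels were -0.03, 2.47 and 5.16 in 12 BALB/cJ livers, 2.68, 4.85 and 5.77 in 12 DBA/2J livers and 2.36, 5.73 and 8.07 in 12 C57Bl/6J livers. BALB/cJ was lower than C57Bl/6J by a log2 difference of -3.04 ± 0.44 (adjusted p = 4.2e-08) and lower than DBA/2J by -2.17 ± 0.44 (adjusted p = 4.41e-05), although single animals overlapped. Junb in BALB/cJ liver, at 3.07, 3.74 and 4.94, lay below DBA/2J, at 5.01, 5.29 and 6.72, with no overlap (-1.59 ± 0.28, adjusted p = 3.55e-06). Dusp1 went the other way in liver, with a BALB/cJ minus DBA/2J difference of 1.05.

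In soleus the widest chow difference was Nr4a1. Its lowest, median and highest levels were 4.32, 6.22 and 6.97 in BALB/cJ, 4.95, 5.84 and 6.38 in DBA/2J and 7.03, 7.48 and 7.86 in C57Bl/6J. Every C57Bl/6J muscle was above every muscle of the other strains, and the log2 differences were -1.50 ± 0.22 for BALB/cJ minus C57Bl/6J (adjusted p = 5.53e-08) and -1.70 ± 0.22 for DBA/2J minus C57Bl/6J (adjusted p = 2.14e-09). On chow Fos and Fosb had DBA/2J minus C57Bl/6J differences of -1.65 and -1.62. On HFD the DBA/2J minus C57Bl/6J difference of Nr4a1 was -0.55. Fos and Fosb were not called between these strains on HFD, though each had an unadjusted p under 0.05 by limma. The Egr1 difference between strains in soleus ended without animal 2RC230 (adjusted p = 0.0602). In adipose tissue Atf3 was the widest, at 0.42, 1.88 and 3.20 in BALB/cJ, 1.56, 3.34 and 4.77 in DBA/2J and 2.22, 2.97 and 4.92 in C57Bl/6J (BALB/cJ minus DBA/2J -1.45 ± 0.36, adjusted p = 0.00316, and -1.11 ± 0.34, adjusted p = 0.0172, with the B cell marker set in the fit).

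On HFD, BALB/cJ mice had lower levels than C57Bl/6J mice for many of these genes. In adipose tissue 6 of 10 were lower, where 8.61% of all genes were: Atf3 (-2.50 ± 0.36, adjusted p = 2.44e-07), Fosb (-2.0), Fos (-1.82), Dusp1 (-1.42), Nr4a1 (-1.39) and Jun (-0.82), and the same 6 were called with the B cell marker set in the fit, where 30.7% of all genes passed in either direction. Atf3 had -1.55, 1.84 and 2.93 in BALB/cJ on HFD, against 2.63, 3.66 and 6.16 in C57Bl/6J on HFD, with little overlap. The lowest value was that of 3HF201, the animal with the lowest adipocyte markers. Its library also held the highest level of Cela1, the 1 measured marker of 4 of exocrine pancreas, at 9.72 against a median of 0.91 over the 12 BALB/cJ samples on HFD. Without this animal Atf3 had -2.19 (adjusted p = 6.14e-07), and the same 6 genes were called. In liver 7 of 9 differed, 6 of them lower, where 44.2% of all genes differed, and in soleus 5 of 10, 4 of them lower, where 34.7% did. Nr4a1 was lower in BALB/cJ in every tissue on HFD, by -2.40 ± 0.32 in liver (adjusted p = 4.33e-09), -2.12 ± 0.22 in soleus (adjusted p = 2.11e-12) and -1.39 in adipose tissue.

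Fewer of these genes differed between days of sampling, and the day and the sampling session cannot be told apart. On RC, 3 of 9 liver genes differed between days, where 10.4% of all genes did: Jun, higher on day 33 than on day 5 by 0.96, and Atf3 and Nr4a1, each higher on day 33 than on day 13 by 1.14. Without the C57Bl/6J animal 1RC210 none of the 3 was called. On HFD, 3 of 9 liver genes differed, where 18.9% of all genes did. Egr1 then had a lowest, median and highest level of -0.04, 2.40 and 4.04 on day 5, 1.70, 3.35 and 5.35 on day 13, and 2.57, 4.07 and 6.32 on day 33, with day 33 above day 5 by 1.80 ± 0.44 (adjusted p = 0.00783). Fos and Ier2 were higher on day 33 than on day 5 by 1.22 and 0.48. The F test call of Fos ended without any of 9 animals (1HF225, 1HF227, 1HF259, 2HF202, 2HF203, 2HF209, 2HF211, 3HF202 and 3HF259, adjusted p up to 0.0953) and with the number range in the fit (adjusted p = 0.112).

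In soleus 0 of 10 genes differed between days on RC by limma, where 7.85% of all genes did and 2 of the 10 had an unadjusted p under 0.05, and 4 of 10 on HFD, where 16.9% did: Nr4a1, Atf3, Btg2 and Jun, each lower on day 33 than on day 13, by -0.84, -1.37, -0.63 and -0.35. With the number range in the fit only Nr4a1 of the 4 stayed called. In adipose tissue Fos alone differed on RC, where 0.0242% of all genes did. Its levels were 2.24, 3.10 and 4.03 on day 5, 2.24, 3.37 and 6.36 on day 13, and 3.41, 5.26 and 6.92 on day 33 (day 33 minus day 5, 2.10 ± 0.40, adjusted p = 0.0168). The F test call of Fos ended without any of 9 animals (adjusted p up to 0.119) and with the B cell marker set in the fit, where 0.0121% of all genes passed. The difference of day 33 from day 5 stayed called with the set, at 1.87 ± 0.36 (adjusted p = 0.0291), where 0.0121% of all genes did too. The 9 animals were 1RC211, 1RC227, 1RC235, 1RC256, 2RC203, 2RC208, 2RC209, 3RC208 and 3RC209. On HFD 0 of 10 adipose genes differed between days by limma, where 0.526% of all genes did and 2 of the 10 had an unadjusted p under 0.05. With the B cell marker set in the fit 0 of 10 did, where 1.34% of all genes did.

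Animals of the same strain, diet and day also differed from each other along lines that several genes shared. Each animal's deviation from its group mean was used, so strain, diet and day do not enter. In liver 24 of 36 pairs of genes correlated positively past an adjusted p of 0.05 and none negatively, with a median Pearson r of 0.385 over 72 animals (permutation test within groups, adjusted over 126 pairs of the 3 tissues). The highest was Egr1 with Ier2, at r = 0.705 and Spearman rho = 0.634 (adjusted p = 5.04e-05 and 5.25e-05), and r = 0.644 without the 2 animals farthest from the median. Within the lower, middle and upper number range it was 0.745, 0.474 and 0.624. Dusp1 stood apart from Junb in liver, at r = 0.0947, the lowest of the 36. In soleus 21 of 45 pairs correlated positively and none negatively, with a median r of 0.301. There Junb and Ier2 had r = 0.701 (rho = 0.747, and 0.684 without the 2 animals), and 0.575, 0.912 and 0.838 within the ranges. Fos and Dusp1 had r = 0.670 (rho = 0.742, and 0.639 without the 2 animals), and 0.542, 0.770 and 0.858 within the ranges. Egr1 and Atf3 in soleus had the lowest value, -0.168. The genes of a tissue were measured in the same libraries, so errors of a library enter both genes of a pair. The share of pairs of all genes that correlate was not computed, so these counts have no background.

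In adipose tissue correlations were computed within each of the 2 sets of libraries, over deviations from group means within a set. In the 38 libraries with more B cell transcripts, 7 of 45 pairs correlated positively and 1 negatively. The highest was Junb with Ier2 (r = 0.854, rho = 0.907, adjusted p = 0.0009 for both, and r = 0.882 without the 2 farthest animals), and the negative pair was Jun with Btg2 (r = -0.519, rho = -0.578, adjusted p = 0.0036 and 0.00248, and r = -0.461 without the 2). In the 26 libraries with fewer, 25 of 45 correlated positively and none negatively, with a median r of 0.606 against 0.350 in the other set. There Fos and Btg2 had r = 0.873 (rho = 0.880, adjusted p = 0.00383 and 0.00248, and r = 0.812 without the 2). Jun and Btg2, negative in the other set, had r = 0.551 (rho = 0.529, adjusted p = 0.0285 and 0.0386, and r = 0.396 without the 2). The difference between the sets was not tested, and the share over pairs of all genes was not computed here either.

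**Figure D5:**
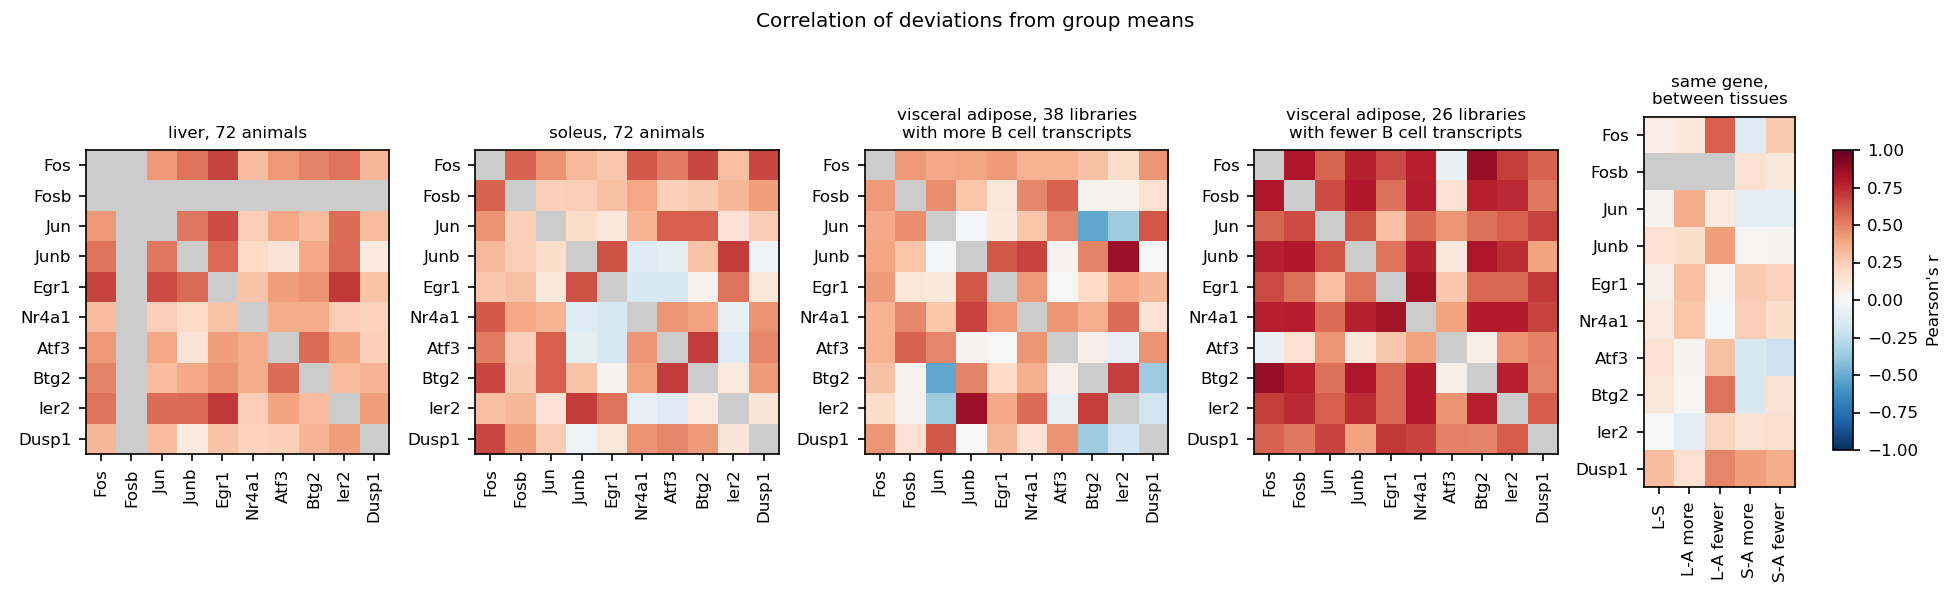
Pearson's r of deviations from group means between pairs of genes in liver, soleus and the 2 sets of visceral adipose libraries, and of the same gene between tissues (L liver, S soleus, A adipose tissue, more and fewer for the B cell marker sets). Grey marks a gene with itself or not analysed. Within a tissue most values are positive, with medians of 0.385 in liver and 0.301 in soleus, and between liver and soleus the median is 0.101.

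The same gene was also compared between tissues of the same animals. Between liver and soleus 0 of 9 genes correlated past an adjusted p of 0.05 over 72 animals, and the median r was 0.101, with 0.0466, -0.144 and -0.0363 within the number ranges. Dusp1 had the highest value, r = 0.306 and rho = 0.153 (permutation p = 0.030, adjusted p = 0.842), and 0.23 without the 2 farthest animals. Between adipose tissue and liver, 0 of 9 genes passed in either set, and between adipose tissue and soleus 0 of 10 in either set. The highest was Fos in liver and in adipose libraries with fewer B cell transcripts, at r = 0.595 and rho = 0.601 (permutation p = 0.00811, adjusted p = 0.308), and 0.403 without the 2 farthest animals.

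Genes outside the 10 whose deviations were most like theirs were ranked by mean Pearson r with the members over 72 animals, as a description with no test. In liver they were Zfp36 at 0.507, the stress-induced secreted factor Gdf15 at 0.466, Trib1 at 0.413, Hes1 at 0.398 and Jund at 0.367. In soleus they were Klf6 at 0.343, Zfp36 at 0.339, Otud1 at 0.337, Ier5 at 0.335 and Tob2 at 0.334. In adipose tissue, over both sets of libraries, they were Zfp36 at 0.346, Ier3 at 0.324, the chemokine Cxcl2 at 0.281, Dll1 at 0.262 and Ccn1 at 0.253. Zfp36 was in the leading 5 of every tissue.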

How the data were processed

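RNA was taken from liver, soleus and visceral adipose tissue with an RNeasy Plus micro kit, per the labels' protocols, with RNA quality numbers of 8.2 to 9.3. Stranded TruSeq mRNA libraries were made from 250 ng of RNA and sequenced as 100 bp single reads on a HiSeq instrument. The submitters' processing notes name GRCm38, edgeR and STAR 2.5.3a. What each did, how reads were counted and whether by strand, the annotation and the scaling are not given in the sources used here.

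Per gene the authors deposited log2 CPM values, made with a prior count that the values place at 0.25 reads in liver and 2 reads in soleus and adipose tissue. Whole reads came back from 100% of values under 2000 reads within 0.05 reads. A value of 0 reads stands at -6.63, -3.74 and -3.81 in liver, soleus and adipose tissue. Header lines lack 1 cell, and a title therefore names the next column. Of 224 samples 216 were used, and 8 liver libraries of 4 animals were not analysed here. No libraries were identical. The design text gives days 5, 13 and 13 and the labels days 5, 13 and 33, and the labels were followed.

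Genes with a log2 CPM of at least 0 in at least 4 animals were tested, 12611 in liver, 13637 in soleus and 16541 in adipose tissue, and each measured member passed. Symbols were matched for 12602, 13624 and 16520 genes. Tests were made in limma 3.58.1 under R 4.3.3 with moderated variances that follow a trend, in 1 fit per tissue with 18 group means and 54 residual degrees of freedom (prior 4.11, 3.57 and 2.47). Values of p are two-sided and adjusted by Benjamini-Hochberg over every tested gene for each contrast of a tissue, called at 0.05, and errors of fold changes are standard errors. With 4 animals a group, spread between animals sets the precision. The fit was tested on simulated data.

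Correlations used 100000 permutations within groups. Figures were drawn with matplotlib 3.10.9.

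The genes and the lists were chosen with earlier results of these data known. All members are named, and other genes by 2 rules: up to 3 genes of smallest p in a described list, and the 5 genes with the highest mean r with the members per tissue. The lists were further early genes, signalling to early genes, AP-1 and partner factors, heat shock, glucocorticoid-induced and clock genes, and they were described by counts with no list test. Alternatives were other filters, quantile normalization, log2(CPM + 1), no variance trend, the number range as covariate or within ranges, a replicate block, only the animals compared, each animal left out in turn, and, chosen after the data were seen, the B cell marker set.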

Additional observations from a re-analysis of the deposited data

Results flagged for a closer look

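Of 522 sets of 4 values, each of 1 gene in 1 group, 36 (6.9%) held 1 animal far from the other 3, by the share of the set's range that its gap took. Chance gives about 1 in 20 sets. All values are log2 CPM, and the range of the other 3 animals follows each in words or brackets.

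In liver, Junb and Egr1 were high in the same DBA/2J HFD animal of day 33, 2HF209, at 5.96 (others 4.98 to 5.03) and 6.32 (others 3.94 to 4.20), and Atf3 was low in 2HF208 of that group at -0.40 (others 1.44 to 1.76). Jun was low in a BALB/cJ HFD animal of day 13 at 3.87 (others 4.88 to 4.98). On RC at day 33, Ier2 was high in the C57Bl/6J animal 1RC210 at 5.79 (others 4.45 to 4.58), Egr1 was high in a BALB/cJ animal at 4.58 (others 2.52 to 2.85), and Dusp1 was low in the BALB/cJ animal 3RC259 at 6.16 (others 7.85 to 8.09).

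In soleus, the C57Bl/6J HFD animal 1HF257 of day 33 was high for Jun at 7.16, Ier2 at 3.82 and Dusp1 at 7.13, where the other 3 animals held 6.35 to 6.44, 3.23 to 3.31 and 6.59 to 6.67. In DBA/2J on HFD at day 13, Atf3 was high in 2HF230 at 8.55 (others 7.20 to 7.28) and Btg2 low in 2HF231 at 6.05 (others 6.79 to 6.93). In C57Bl/6J on HFD at day 13 Btg2 was low at 6.18 (others 6.78 to 6.87). In BALB/cJ on HFD at day 33 Jun was high at 7.24 (others 6.68 to 6.70) and Nr4a1 high in another animal at 5.23 (others 4.78 to 4.81). On RC at day 13, Ier2 in C57Bl/6J was low at 2.75 (others 3.23 to 3.29), Fos in DBA/2J was high at 3.61 (others 2.74 to 2.88) and Junb in BALB/cJ was high at 3.80 (others 2.59 to 2.73). On RC at day 33, Jun in C57Bl/6J was high at 6.90 (others 6.55 to 6.60), Fos in DBA/2J was low at 3.27 (others 4.30 to 4.36), and Fos in BALB/cJ was low in 3RC259 at 2.69 (others 5.48 to 5.98).

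In adipose tissue, the DBA/2J HFD animal 2HF203 of day 5 was low for Junb at 4.17 (others 5.70 to 5.91) and Nr4a1 at 2.99 (others 4.37 to 4.66) and high for Atf3 at 3.31 (others 2.04 to 2.24). In BALB/cJ at day 5, Atf3 on HFD was low in 3HF201 at -1.55 (others 2.01 to 2.16), the animal with the lowest adipocyte markers and the highest Cela1, a marker of exocrine pancreas, and on RC Junb was low at 3.71 (others 4.99 to 5.16) and Egr1 high at 5.69 (others 4.23 to 4.43). On HFD at day 13, Atf3 in DBA/2J was high at 5.23 (others 3.54 to 3.77) and Fos in BALB/cJ was low at 1.95 (others 3.25 to 3.27). On RC at day 13 in C57Bl/6J, Junb was low at 5.13 (others 5.66 to 5.74) and Atf3 high at 4.92 (others 3.00 to 3.31). On HFD at day 33, the C57Bl/6J animal 1HF209 was high for Fosb at 5.28 (others 1.55 to 1.96) and Nr4a1 at 7.15 (others 5.07 to 5.19), and Btg2 in DBA/2J was low at 6.03 (others 6.75 to 6.84). On RC at day 33, Dusp1 in C57Bl/6J was high at 7.06 (others 5.77 to 5.97), and Nr4a1 in BALB/cJ was low in 3RC259 at 3.48 (others 5.15 to 5.38). The BALB/cJ animal 3RC259 thus stood low for a different gene in each tissue.

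The diet effect differed between strains, by limma's F test adjusted over all genes, for Dusp1 in liver (adjusted p = 0.00448) and for Dusp1 (9.57e-05), Nr4a1 (0.000313), Btg2 (0.00115) and Fos (0.00136) in soleus. It differed between days for Nr4a1 in soleus (adjusted p = 0.0289). The directions in each strain and day are given in the report.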

How the results depend on the processing

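Counts of called genes kept within 1.5 times their value, and called fold changes of single genes their direction, except as follows. Within number ranges the liver diet count of 4 became 0 in the middle and 0 in the upper range. The soleus count of 1 became 3 in the lower, 3 in the middle and 0 in the upper range. The share of all genes called within ranges was not counted. Of the called fold changes, Dusp1 in liver turned to 0.0652 (upper) and Fosb in soleus to -0.207 (lower). Nr4a1 and Btg2 in soleus, not called over all strains and days, turned to -0.7819 and -0.5832 in the lower range and were called there. With the number range as covariate, 3 genes in place of 1 differed in diet effect between strains in liver, 1 in place of 4 between days on HFD in soleus, 1 in place of 0 within strains and 2 in place of 1 at single days in adipose tissue. The stricter filter, which tests 4, 7 and 8 members in liver, soleus and adipose tissue, left 3 of 7 strain calls, 1 of 3 day calls on RC and 1 of 3 on HFD in liver, 0 of 1 diet calls and 2 in place of 1 diet by day calls in soleus, and 2 of 4 strain calls in adipose tissue. The replicate block gave 2 in place of 1 diet by strain calls in liver and 2 in place of 1 diet by day calls in soleus, and it moved no other count by over 1.5 times. Whether equal numbers pair an HFD and an RC animal was not settled. Deviations of same-numbered animals over all genes correlated over 0.1 in 12, 7 and 4 of 20 pairs. Their median r was 0.133 in liver, 0.00217 in soleus and -0.359 in adipose tissue, and no pairs of unlike numbers were set beside them. Fits of only the animals compared gave 0 in place of 1 at single days in adipose tissue. With the B cell marker set there were 1 in place of 0 diet, 1 in place of 0 within strains, 2 in place of 1 at single days, 1 in place of 0 diet by strain and 0 in place of 1 day calls on RC in adipose tissue. The cause of these shifts was not tested, and the fits within number ranges held unlike strains and days.

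With each of the 72 animals left out in turn, the counts ran as follows, for liver, soleus and adipose tissue in this order. Diet over all strains and days gave 4 to 6, 1 to 2 and 0 to 0, within strains 4 to 8, 6 to 9 and 0 to 1, and at single days 4 to 8, 8 to 13 and 1 to 2. Diet by strain gave 1 to 3, 4 to 6 and 0 to 1, and diet by day 0 to 1, 0 to 3 and 0 to 0. Strains on RC gave 7 to 8, 7 to 9 and 2 to 5, days on RC 0 to 4, 0 to 0 and 0 to 1, and days on HFD 2 to 4, 3 to 5 and 0 to 0. Of the single-gene fold changes so recomputed, 8219 kept their side of the threshold, 81 passed it anew and 52 lost it. None of the 17 called fold changes changed sign when an animal was left out, and 23 of the 99 not called did, each of them within 0.1663 of 0. Under the other alternatives 30 of those 99 changed sign. Genes that passed anew include Ier2 over all strains in liver and Jun in DBA/2J liver, whose adjusted p lay at 0.0513 and 0.0502. With 4 animals a group, differences of low genes such as Nr4a1 in liver and Fosb in soleus rest on few reads, and the day and the sampling session cannot be told apart.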
